A study of Homo sapiens with 31 samples.

Results

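The genes described here encode 9 proteins of the hematopoietic stem and progenitor cell surface and its niche: the surface markers CD34 and PROM1, the integrin chains ITGA6 and ITGA4, the adhesion receptors ADGRG1 and CD44, the chemokine receptor CXCR4, and the receptor TEK with its ligand ANGPT1. They were chosen by name and make up 9 of 20163 protein-coding genes on chromosomes 1 to 22, X and Y. Each locus was the gene body with 50 kb on either side. The deposited ChIP-seq peak lists of 13 libraries were searched for peaks in these windows, which range from 105 kb for CXCR4 to 349 kb for ANGPT1.

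EVI1 is a zinc finger transcription factor that is switched on by chromosome 3 rearrangements in aggressive myeloid leukemias, and CTBP2 is a corepressor that binds EVI1 through a short PLDLS motif. Blood stem cells are held in the marrow by surface proteins: integrins grip matrix and stromal ligands, CXCR4 senses the chemokine CXCL12, and ANGPT1 signals through TEK to keep stem cells quiescent. CD34 and PROM1 (CD133) are used to isolate stem and progenitor cells, ADGRG1 (GPR56) marks human stem cells, and CD44 binds hyaluronan.

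The study asked where EVI1 and CTBP2 bind and what becomes of that binding when a competitor peptide occupies CTBP2. MUTZ3, a human acute myelomonocytic leukemia line with an EVI1-activating rearrangement, was used unmodified and untreated (1 EVI1 library after DSG double crosslinking, 1 CTBP2 library after a single crosslink). It was also used with the retroviral construct p50MX-3xFLAG-3xNLS-4xPLASS-Zeo, a control with the mutated motif (2 CTBP2 libraries labelled as DSG, whose inputs are labelled as single crosslink). The third MUTZ3 model was a bulk population carrying pCW-4xPLDLS, in which doxycycline (dox) induces 4 repeats of the competitor. Its CTBP2 and EVI1 libraries were made at 72 h without or with dox, all with DSG, with 2 libraries per protein and treatment and 1 input per treatment. MOLM1, a line from chronic myeloid leukemia in blast crisis, gave 1 CTBP2 library from cells with a dox-inducible short hairpin against EVI1, here untreated (labelled as DSG, its input as single crosslink). Nothing in the labels says that replicates came from separate cultures, so the spread between them may be technical. CTBP2 libraries of unmodified cells and of the inducible model differ in both crosslink and construct, which cannot be told apart. The EVI1 libraries of these models share the DSG label and differ in construct. The paper's methods name more than 1 library kit and sequencing platform, so preparation may differ too and cannot be told apart from construct.

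The lists held from 6688 peaks (4xPLASS replicate 1) to 72214 peaks (EVI1, untreated replicate 2), and no read counts, so sequencing depth was unknown. Untreated CTBP2 replicate 1 stood apart: of its 5000 peaks of lowest p, 63.4% overlapped the top 5000 of untreated CTBP2 replicate 2, whereas 65.2% overlapped those of EVI1 untreated replicate 2. CTBP2 untreated replicate 2 shared 67.8% and 68.3% of its top 5000 with dox replicates 1 and 2, and replicate 1 shared 58.2% and 51.0%. Numbers of peaks, kept shares and overlaps that rest on replicate 1 are therefore also given without it, from the peaks of replicate 2, and the list of sites itself needs both libraries. Below, a site is an interval where the inducible model had a peak in each untreated library, and a site is kept when a dox peak overlaps it by at least 1 bp. Fold enrichment, the MACS2 ratio of summit signal to local background, ranks peaks only within a list. Values with and without dox are listed side by side and do not measure a change in binding.

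The sequences below are shown because they are the strongest sites of the loci that the results turn on, with 1 site that was lost with dox next to the CD34 promoter. Each is 61 bases of the hg19 forward strand, read from the GRCh37 sequence around the summit of the strongest untreated library. Capitals mark the motif GATAAG, of the type bound by GATA factors, which stands in 3 of the 7 sequences. The 7 were picked, so this count is no share of the sites. Within 100 bases of the summit, GATAAG stood at 7 of 65 CTBP2 sites of the loci, against 5.09% of all CTBP2 sites. The first lies at chr1:208097102-208097162, 12.4 kb upstream of CD34, and the second at chr1:208085374-208085434, 0.657 kb upstream of it. The others lie at chr2:173260406-173260466 (ITGA6, 31.6 kb upstream), chr2:182321811-182321871 (ITGA4, 0.088 kb upstream), chr16:57626697-57626757 (ADGRG1, 17.8 kb upstream), chr11:35165717-35165777 (CD44, intronic, 5.32 kb from the start site) and chr4:16045598-16045658 (PROM1, intronic, at the EVI1 summit).
CD34 upstream CTBP2 site: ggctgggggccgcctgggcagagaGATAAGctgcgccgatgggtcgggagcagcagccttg
CD34 lost promoter-proximal CTBP2 site: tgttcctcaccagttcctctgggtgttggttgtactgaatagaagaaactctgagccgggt
ITGA6 upstream CTBP2 site: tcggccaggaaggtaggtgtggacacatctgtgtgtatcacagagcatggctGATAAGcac
ITGA4 promoter CTBP2 site: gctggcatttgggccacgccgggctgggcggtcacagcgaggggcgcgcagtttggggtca
ADGRG1 upstream CTBP2 site: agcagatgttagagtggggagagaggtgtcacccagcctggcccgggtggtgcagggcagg
CD44 intronic CTBP2 site: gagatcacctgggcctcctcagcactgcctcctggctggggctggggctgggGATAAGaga
PROM1 intronic EVI1 site: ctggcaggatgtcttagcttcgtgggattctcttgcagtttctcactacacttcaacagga

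Across the 9 loci, 43 CTBP2 peaks and 51 EVI1 peaks were called in unmodified MUTZ3 cells. The 4xPLASS control libraries held 21 and 78 CTBP2 peaks there, and MOLM1 held 110. In the inducible model without dox, 103 and 114 CTBP2 peaks and 92 and 101 EVI1 peaks were called. The loci took from 0.140% (EVI1, untreated replicate 2) to 0.314% (4xPLASS replicate 1) of a list. ADGRG1 carried the most peaks of the 9 genes in every list but MOLM1, where ITGA6 led with 21, and untreated CTBP2 replicate 2, where CD34 led with 24. TEK carried at most 2 in any list.

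**Figure D1:**
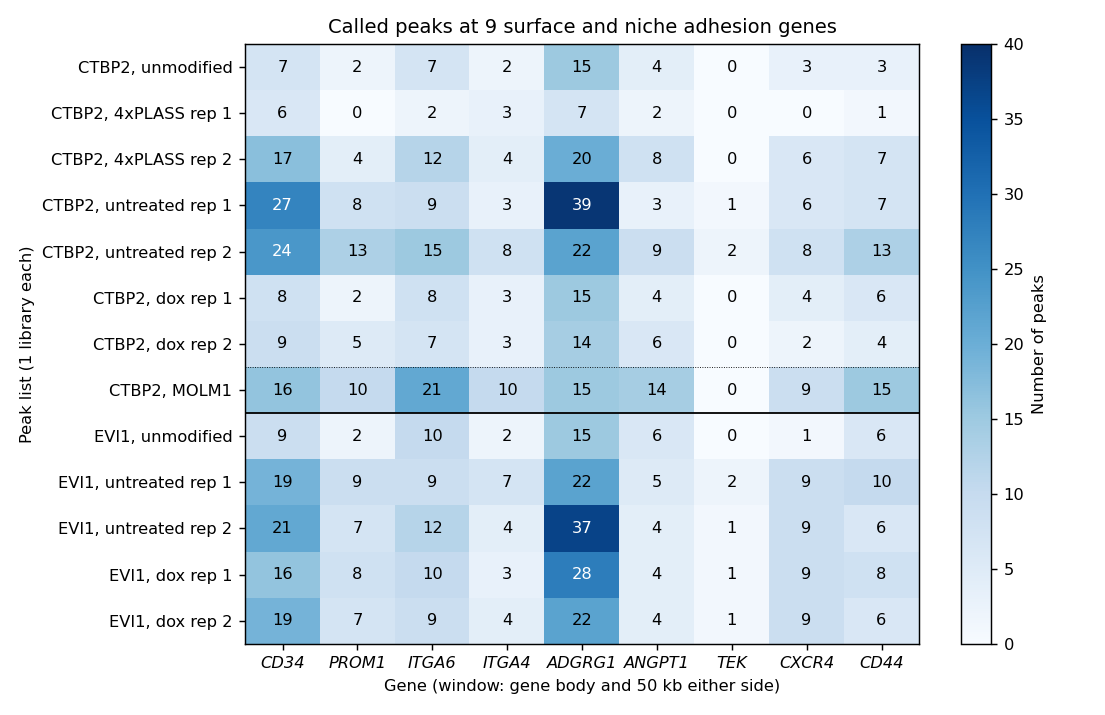
Number of called peaks in the window of each gene (columns) in each of 13 peak lists (rows, 1 library each), with the CTBP2 lists above the line and the EVI1 lists below it, and darker cells for more peaks. ADGRG1 reached 39 CTBP2 peaks in untreated replicate 1 and 37 EVI1 peaks in untreated replicate 2, and TEK had 0 peaks in unmodified, 4xPLASS and MOLM1 cells.

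CD34, the sialomucin by which progenitors are sorted, was among the most densely occupied genes. Its window of 130 kb held 18 CTBP2 sites and 17 EVI1 sites, more than 99.1% and 97.8% of all genes, against medians of 3 and 4 sites per gene. All 18 CTBP2 sites had the CD34 start site as their nearest protein-coding start site, and no other protein-coding gene lies in the window. The strongest CTBP2 site (chr1:208096024-208098048) lay 12.4 kb upstream, ranked 471 of 37227 CTBP2 sites, and was called in all 13 lists. Its CTBP2 fold enrichment was 26.9 and 26.7 in the untreated libraries (ranks 796 and 391). With dox it was 17.0 and 18.5 (ranks 165 and 216, in shorter lists). As percentiles of the lists these ranks were 1.28 and 0.692 without dox and 0.671 and 0.905 with dox. EVI1 enrichment at the same site was 24.3 and 44.4 without dox and 43.0 and 39.1 with dox. In unmodified cells it was the strongest CD34 peak for both proteins, with a fold enrichment of 13.9 for CTBP2 and 12.4 for EVI1.

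CTBP2 and EVI1 also met at the CD34 promoter. The site over the start site, annotated as UTR (chr1:208083849-208085037) was called in all 13 lists, with CTBP2 at 18.9 and 12.6 without dox and 8.27 and 6.70 with dox. An adjoining CTBP2 site (chr1:208085181-208085549), the lost site whose sequence is shown above, had untreated values of 6.75 and 6.62 and no CTBP2 peak with dox. No EVI1 peak was called there without dox, and 1 was called in dox replicate 1 (4.72). It was also called in unmodified cells (4.39), in MOLM1 (7.62) and in 4xPLASS replicate 2 (4.01). Downstream of the gene, sites 38.1 kb and 77.8 kb from the start site were again called in all 13 lists. A site at 63.1 kb, kept in both dox libraries, was the strongest CD34 peak of MOLM1 (21.7, rank 2182 of 64569), yet had a fold enrichment of 8.28 and 5.60 in untreated MUTZ3 cells. Of the 18 CTBP2 sites at CD34, 7 were kept in both dox libraries, 3 in 1 and 8 in neither. Over all CTBP2 sites, 38.4% were kept in both and 41.0% in neither.

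**Figure D2:**
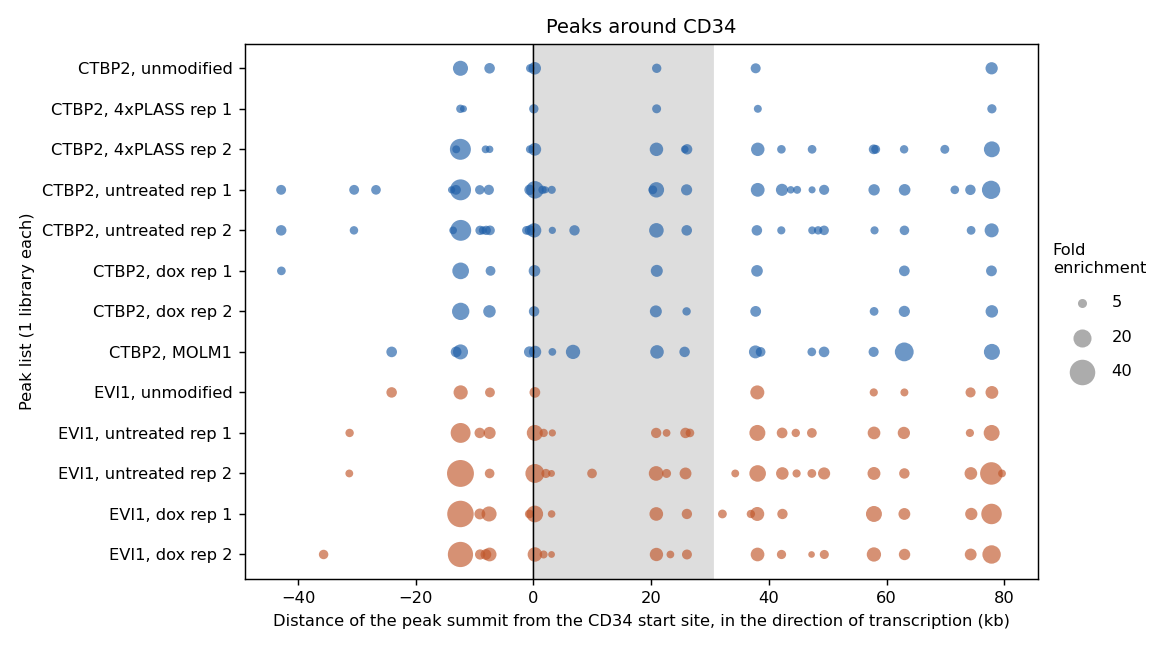
Position of every peak around CD34 in the 13 lists, as the distance of its summit from the start site in kb along the direction of transcription (gray: gene body), with dot area proportional to fold enrichment within the list (blue CTBP2, orange EVI1). The columns of dots at 12.4 kb upstream, at the start site and at 38.1 and 77.8 kb downstream run through all 13 lists.

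ADGRG1, an adhesion G protein-coupled receptor, held 16 CTBP2 and 19 EVI1 sites, more than 98.3% and 98.9% of genes. Its window also covers ADGRG5, ADGRG3 and DRC7, and ADGRG1 was the nearest start site for 8 of the 16 CTBP2 sites. By the mean of the untreated libraries, the strongest CTBP2 site (chr16:57624567-57627464) lay 17.8 kb upstream. Its values were 24.4 and 16.3 without dox and 9.78 and 8.88 with dox. In untreated replicate 2 the strongest CTBP2 peak of the window (18.3) was instead the one 84.4 kb downstream, nearest to DRC7. The same place led in unmodified cells (17.3) and in both dox libraries (12.7 and 12.7). The strongest EVI1 site (chr16:57722678-57724623) lay 79.2 kb downstream, nearest to DRC7, and ranked 496 of 40449 EVI1 sites, with 33.2 and 43.6 without dox and 29.8 and 24.7 with dox. A CTBP2 site there was the strongest peak of the locus in MOLM1, at 29.8 (rank 576). Both places, and another 84.4 kb downstream, were called in all 13 lists. Untreated CTBP2 replicate 1 held 39 peaks at ADGRG1 and replicate 2 held 22, and EVI1 untreated replicates 1 and 2 held 22 and 37. With dox, 9 of the 16 CTBP2 sites were kept in both libraries and 4 in neither, against 38.4% and 41.0% of all CTBP2 sites.

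**Figure D3:**
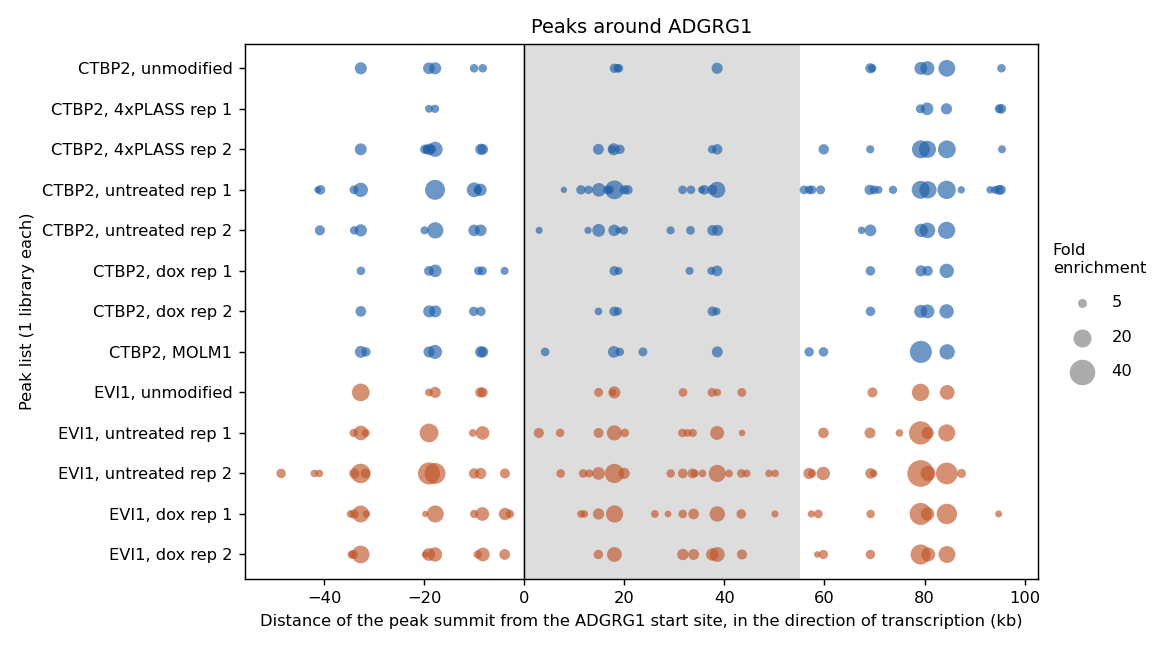
Position of every peak around ADGRG1 in the 13 lists, drawn as for CD34, with the gene body in gray and dot area proportional to fold enrichment. The columns at 17.8 kb upstream and at 79.2 and 84.4 kb downstream run through all lists, and many small dots appear only in CTBP2 untreated replicate 1 and EVI1 untreated replicate 2.

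The integrin chains carried their strongest sites at different places. ITGA4, the alpha chain of the VCAM1 and fibronectin receptor VLA-4, had only 2 CTBP2 and 2 EVI1 sites, but its promoter site (chr2:182321170-182323073) was called in all 13 lists. EVI1 enrichment there was 28.9 and 46.2 without dox and 29.5 and 21.7 with dox, and it ranked 550 of all EVI1 sites. CTBP2 enrichment was 18.9 and 15.5 without dox and 11.6 and 8.62 with dox, and in unmodified cells the promoter gave the strongest ITGA4 peak of both proteins (17.6 for CTBP2, 21.0 for EVI1). ITGA6, a laminin receptor chain that marks human stem cells, had 9 CTBP2 sites and 7 EVI1 sites, and every one of the 7 EVI1 sites met a CTBP2 site. Its strongest site (chr2:173260149-173261506), 31.6 kb upstream, had CTBP2 values of 22.7 and 18.8 without dox and 9.28 and 10.9 with dox. In unmodified cells the strongest ITGA6 peak of EVI1 was another, nearest to PDK1 (chr2:173378648-173378884, 15.1). The ITGA6 promoter site had 12.2 and 8.39 without dox, 4.01 in dox replicate 1 and no peak in dox replicate 2.

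At PROM1 the 2 proteins differed in rank. An intronic EVI1 site (chr4:16045048-16045867), 40.4 kb into the gene, ranked 3877 of all EVI1 sites, with 15.3 and 20.8 without dox and 23.4 and 24.8 with dox, and 16.0 in unmodified cells. The CTBP2 site in the same intron had 5.38 and 8.40 without dox, ranked 20276, and no CTBP2 peak was called there in unmodified cells or in MOLM1. Neither of the 2 EVI1 peaks of unmodified cells at PROM1 overlapped a CTBP2 peak. Of the 5 CTBP2 sites, 1 was kept in both dox libraries and 4 were kept in neither, whereas all 5 EVI1 sites were kept in both. The strongest PROM1 peak of CTBP2 untreated replicate 2 (chr4:16033118-16034446, 52.3 kb into the gene) was missing from replicate 1 and so was no site. Its fold enrichment was 11.9 without dox and 4.98 and 9.97 with dox.

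CXCR4 and CD44 were occupied more weakly. The strongest CXCR4 site (chr2:136893388-136894682), 17.3 kb upstream, had CTBP2 values of 10.2 and 10.3 without dox and 5.55 and 7.35 with dox, and EVI1 values of 12.6 and 9.62 without and 9.07 and 8.96 with dox. The intronic CXCR4 site 0.778 kb from the start site (12.3 and 5.70 without dox) and the promoter site (4.43 and 4.44) were called in dox replicate 1 and not in replicate 2. By the mean of the untreated libraries, the strongest CD44 site of CTBP2 (chr11:35165521-35165976) lay in an intron 5.32 kb from the start site. It had 12.7 and 7.96 and was lost in both dox libraries, while EVI1 peaks remained there with dox at 5.75 and 5.79. In MOLM1 this intronic element was the strongest CD44 peak (24.0, rank 1504 of 64569), and in unmodified MUTZ3 cells neither CTBP2 nor EVI1 had a peak there. The only CD44 site found in all 13 lists lay 27.5 kb upstream. It was the strongest CD44 peak of CTBP2 untreated replicate 2 (9.84) and was kept in both dox libraries. In untreated replicate 1 it had 5.80, so the rank of the lost intronic site as strongest rests on that library.

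ANGPT1 and its receptor TEK had few sites called in both untreated libraries. TEK had 1 CTBP2 and 1 EVI1 site, both in the same intron 83.7 kb from the start site, with CTBP2 at 7.17 and 4.14 without dox and no CTBP2 peak with dox. EVI1 at that TEK intron was 4.26 and 7.29 without dox and 5.09 and 6.74 with dox. ANGPT1 had 2 CTBP2 sites, of which an intronic one 154 kb from the start site (10.8 and 9.73) had no CTBP2 or EVI1 peak with dox, and a weak promoter site (3.52 and 3.94) was kept. Stronger CTBP2 elements of ANGPT1 were missing from untreated replicate 1 and so were not sites by the rule. The 2 given here were picked out after their values were seen. The element 154 kb into the gene (chr8:108356484-108357020), 166 bp from the lost site, had a fold enrichment of 20.9 in untreated replicate 2, 9.87 and 16.3 with dox, 14.4 in unmodified cells and 9.45 in MOLM1. EVI1 there was 12.3 in untreated replicate 1, absent from untreated replicate 2, and 4.58 and 10.7 with dox. The element 193 kb into the gene (chr8:108317411-108317787) had 14.2 in untreated replicate 2, 6.02 and 18.5 with dox, 11.2 in unmodified cells and 17.5 in MOLM1. An EVI1 peak was called at the latter in unmodified cells (10.7) and in none of the 4 EVI1 libraries of the inducible model.

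Sites of CTBP2 and EVI1 were compared for overlap at these genes. Of 65 CTBP2 sites, 51 (78.5%) overlapped an EVI1 site, against 82.5% of all CTBP2 sites, and 51 of 67 EVI1 sites (76.1%) overlapped a CTBP2 site, against 75.9%. Both shares lay near those of all sites. The first rests on CTBP2 untreated replicate 1, the library that resembled EVI1 untreated replicate 2. Without it, 60 of the 114 CTBP2 peaks of replicate 2 (52.6%) overlapped an EVI1 site, against 63.8% of its list, and 77 (67.5%) overlapped a peak of EVI1 untreated replicate 1, against 70.5%. Of the 67 EVI1 sites, 54 (80.6%) overlapped a replicate 2 peak, against 79.1%. Unmodified cells had a CTBP2 peak at 27 of the 65 CTBP2 sites and an EVI1 peak at 29, against 31.2% and 39.3% of all sites, and an EVI1 peak at 29 of the 67 EVI1 sites (43.3%), against 37.9%. Summits lay within 1 kb of a protein-coding start site at 10 of the 65 CTBP2 sites (15.4%), against 24.1%. The summits of overlapping sites were a median of 57 bp apart, against 50 bp over all such sites. In unmodified cells, 27 of 51 EVI1 peaks overlapped a CTBP2 peak (52.9%, 95% Wilson interval 39.5 to 65.9), against 43.0% of the whole list, and 26 of 43 CTBP2 peaks overlapped an EVI1 peak (60.5%, 45.6 to 73.6), against 54.5%. The whole-list shares fell within both intervals, which cover counting error only. By gene the EVI1 peaks with a CTBP2 peak were 5 of 9 at CD34, 9 of 15 at ADGRG1, 6 of 10 at ITGA6, 2 of 2 at ITGA4, 3 of 6 at ANGPT1, 1 of 1 at CXCR4, 1 of 6 at CD44 and 0 of 2 at PROM1.

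With dox, CTBP2 peaks at the 9 loci fell from 103 and 114 to 50 and 50, and both dox libraries lay below both untreated libraries. The mean went from 108.5 ± 7.78 to 50 ± 0 (SD, n = 2), a log2 change of -1.12, with an exact two-sided permutation p of 0.33, the smallest that 2 libraries against 2 allow. The whole lists shortened as well, from 62232 and 56526 to 24588 and 23878 peaks. As a share of the list the loci went from 0.166% and 0.202% to 0.203% and 0.209%, a log2 change of 0.17 in the other direction (exact two-sided p = 0.33), so the count at these genes did not fall more than the lists did. Counts in both dox libraries were below both untreated libraries at 7 of the 9 genes, and the same held for 72.3% of the 18377 genes with a CTBP2 peak in any of the 4 lists. At no member were both dox counts above both untreated ones, against 0.234% of genes. Counts overlapped at ITGA4 and ANGPT1. Without untreated replicate 1 the log2 change over the 9 loci was -1.19. Against untreated replicate 2 alone, both dox counts were lower at all 9 genes, and against replicate 1 alone at 7.

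CD34 peaks went from 27 and 24 to 8 and 9, a log2 change of -1.58 in counts and of -0.29 as a share of the list. PROM1 went from 8 and 13 to 2 and 5, a change of -1.58 that ran from -2.39 without dox replicate 2 to -1.07 without dox replicate 1. As a share of the list PROM1 changed by -0.30, with overlap between untreated and dox libraries. At TEK, 1 and 2 peaks became 0 and 0. ADGRG1 went from 39 and 22 to 15 and 14 (log2 -1.07), CXCR4 from 6 and 8 to 4 and 2 (-1.22), CD44 from 7 and 13 to 6 and 4 (-1.0), and ITGA6 from 9 and 15 to 8 and 7 (-0.68). As shares of the list, ADGRG1, CXCR4, CD44 and ITGA6 turned to log2 changes above 0, of 0.24, 0.05, 0.27 and 0.59. ITGA4 went from 3 and 8 to 3 and 3 and ANGPT1 from 3 and 9 to 4 and 6, with log2 changes of -0.87 and -0.26 in counts and of 0.38 and 1.00 in shares of the list. Without untreated replicate 1, the count changes were -1.50 at CD34, -1.89 at PROM1, -0.60 at ADGRG1, -1.42 at CXCR4, -1.38 at CD44, -1.0 at ITGA6, -1.42 at ITGA4 and -0.85 at ANGPT1. Without untreated replicate 2, ADGRG1 was at -1.43, CD44 at -0.49, ITGA6 at -0.26, ITGA4 at 0 and ANGPT1 at 0.74. CXCR4 ran from -1.81 without dox replicate 1 to -0.81 without dox replicate 2. The exact two-sided p was 0.33 for each gene without overlap.

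EVI1 peaks at the 9 loci went from 92 and 101 to 87 and 81, a mean of 96.5 ± 6.36 and 84 ± 4.24 (SD, n = 2), a log2 change of -0.20 (exact two-sided permutation p = 0.33). As a share of the list the change was 0.06, with an exact p of 1. At none of the 9 genes were both dox counts outside the range of the untreated ones on 1 side, against 17.0% of 18931 genes with lower and 3.88% with higher EVI1 counts. CXCR4 had 9 EVI1 peaks in each of the 4 libraries.

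**Figure D4:**
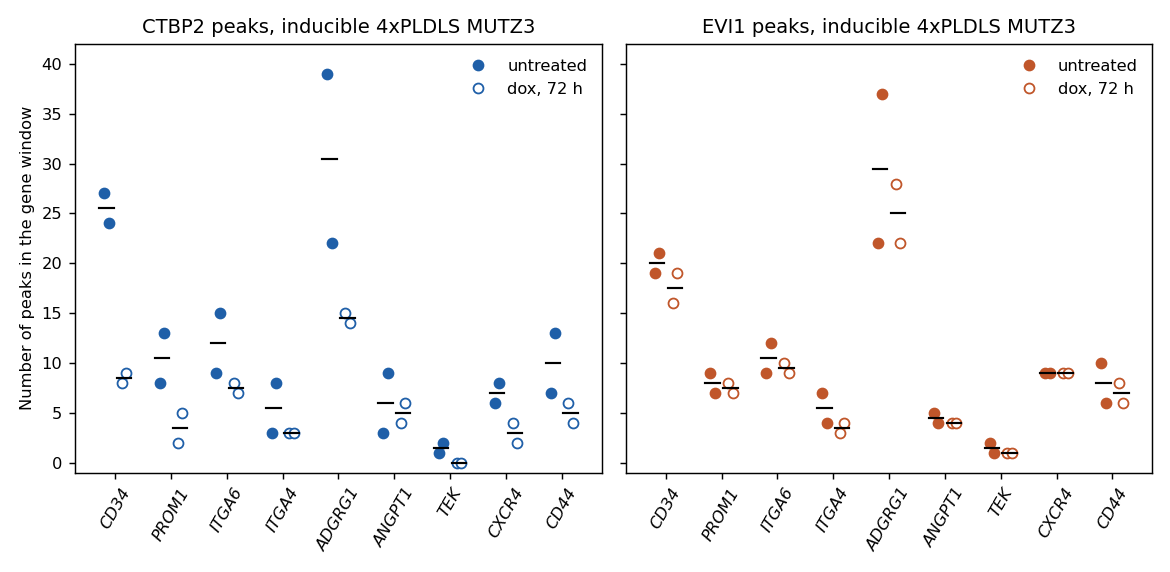
Number of CTBP2 peaks (left) and EVI1 peaks (right) in each gene window in MUTZ3 cells with inducible 4xPLDLS, with 1 dot per library (filled untreated, open dox at 72 h, 2 libraries each) and bars for the means. CTBP2 counts fell without overlap at 7 of 9 genes, and EVI1 counts overlapped at all 9.

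Site by site, 27 of the 65 CTBP2 sites (41.5%) had a peak in both dox libraries, against 38.4% of all CTBP2 sites. Another 14 had a peak in 1 dox library and 24 (36.9%) in neither, against 41.0% of all sites. The mean kept share was 52.3% ± 6.53 (SD over 2 dox libraries), against 48.7% ± 3.03 for all sites. By library it was 56.9% against 50.8% in dox replicate 1 and 47.7% against 46.5% in dox replicate 2. Both means come from the same 2 libraries, so these SDs do not measure the spread of their difference, which was not tested. When untreated CTBP2 replicate 1 was left out, 40.4% of the 114 peaks of replicate 2 were kept, and without replicate 2, 34.0% of the 103 peaks of replicate 1. With the lists cut to equal length, 81.5% of 27 sites were kept. The shares over whole lists under these alternatives are not given here, so they cannot be set beside them. Loss followed strength. All CTBP2 sites were ranked by fold enrichment and cut into 5 equal strength classes. The strongest class held 11 of the 65 member sites, against 20.0% of all sites, and each of the 11 was kept in both dox libraries (87.1% of all sites in that class, with 3.49% kept in neither). From the next class to the weakest, sites kept in both were 7 of 14, 6 of 10, 1 of 15 and 2 of 15 (52.0%, 28.9%, 15.8% and 8.25% of all sites). Sites kept in neither were 3 of 14, 3 of 10, 8 of 15 and 10 of 15 (22.6%, 44.1%, 60.8% and 74.1%). In replicate 2 alone, ranked in the same way, peaks kept in both were 18 of 22, 10 of 27, 4 of 21, 1 of 26 and 2 of 18 from the strongest class to the weakest. Over the whole list of replicate 2, these classes had 75.8%, 33.0%, 15.4%, 8.24% and 6.27% kept in both. Of EVI1 sites at the loci, 51 of 67 (76.1%) were kept in both dox libraries and 7 (10.4%) in neither, against 78.1% and 9.01% of all EVI1 sites. From the strongest class to the weakest, EVI1 sites kept in both were 13 of 13, 10 of 12, 10 of 11, 4 of 9 and 14 of 22 (99.8%, 95.9%, 83.0%, 63.0% and 48.8% of all EVI1 sites). EVI1 sites kept in neither numbered 0, 0, 0, 2 and 5 in these classes, against 0.0124%, 0.692%, 4.23%, 14.7% and 25.4% of all EVI1 sites. The strongest class held 13 of the 67, against 20.0%.

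CTBP2 sites that met an EVI1 site were lost from both dox libraries in 15 of 51 cases, against 34.2% of all such sites, and those without one in 9 of 14, against 73.2%. For the peaks of replicate 2 alone the numbers were 20 of 60 and 37 of 54, against 39.9% and 75.3% of its list. At 10 of the 15 lost sites with an EVI1 site, EVI1 peaks were called in both dox libraries, against 70.5% of all such sites. These 10 lost CTBP2 and not EVI1 in the lists, as at TEK and in the CD44 intron. The count rests on CTBP2 untreated replicate 1, which resembled EVI1 untreated replicate 2, and is not given without it. At both examples CTBP2 was higher in replicate 1 (7.17 at TEK, 12.7 at CD44) than in replicate 2 (4.14 and 7.96). New CTBP2 peaks were rare. Each dox library held 1 peak at the loci that no untreated list had (2.00% of 50), against 4.49% and 6.37% of the lists, at ADGRG1 (3.99) and PROM1 (3.56). EVI1 dox libraries held 17 and 8 such peaks (19.5% and 9.88%), against 13.1% and 10.8% of the lists.

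**Figure D5:**
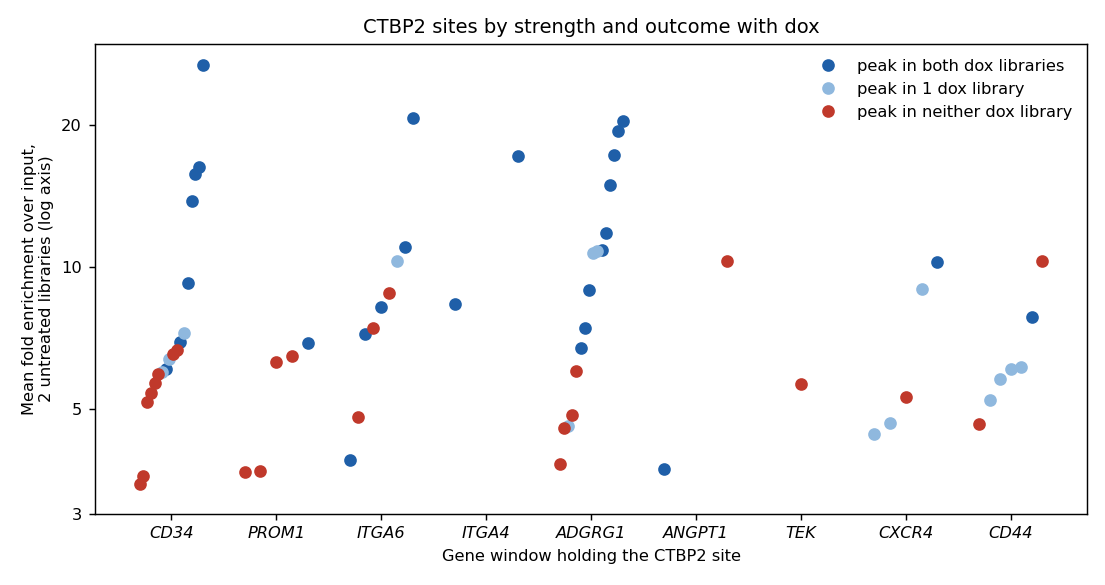
The 65 CTBP2 sites at the 9 genes by mean fold enrichment in the 2 untreated libraries (log axis), with dark blue for sites kept in both dox libraries, light blue for 1 and red for neither. Sites above a mean of 10.8, the value of an ADGRG1 site kept in 1 library, were all kept in both, and lost sites reached 10.3 at ANGPT1 and CD44.

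Of the 65 CTBP2 sites, 11 (16.9%) were called in all 13 lists, against 8.19% of all CTBP2 sites. They were 4 at CD34, 3 at ADGRG1, 2 at ITGA6 and 1 each at ITGA4 and CD44. In MOLM1, 43 of the 65 sites (66.2%) had a CTBP2 peak, against 61.9% of all sites, and 40 of the 67 EVI1 sites (59.7%) did, against 58.3%. CTBP2 sites without a MOLM1 peak were lost from both dox libraries in 12 of 22 cases and those with one in 12 of 43, against 61.6% and 28.4% of all sites. In replicate 2 alone, 63 of 114 peaks (55.3%) had a MOLM1 peak, against 52.8% of its list, and loss was found at 36 of 51 peaks without one and 21 of 63 with one. Over the whole list of replicate 2, loss was found at 71.7% of peaks without a MOLM1 peak and 35.8% of those with one. By gene, sites with a MOLM1 peak were 9 of 9 at ITGA6, 12 of 18 at CD34, 7 of 16 at ADGRG1 and 6 of 7 at CD44. They were 3 of 5 at CXCR4, 2 of 5 at PROM1, 2 of 2 at ITGA4 and ANGPT1 and 0 of 1 at TEK. Differences between genes were not tested, and most rest on few sites. Unmodified MUTZ3 cells had 43 CTBP2 peaks, of which 31 (72.1%, 95% Wilson interval 57.3 to 83.3) had a MOLM1 peak, against 70.2% of the list. From the side of MOLM1, 32 of 110 peaks (29.1%, 21.4 to 38.2) had a peak in unmodified MUTZ3 cells, against 18.7% of the MOLM1 list. At 26 of the 110 MOLM1 peaks (23.6%) no CTBP2 list of untreated or 4xPLASS MUTZ3 cells held a peak, against 36.9% of the list. ITGA6 held 6 of these 26, and PROM1 and ANGPT1 held 5 each. The strongest lay upstream of PROM1 at chr4:16091884-16092046 with a fold enrichment of 10.7, and the strongest at ANGPT1 had 10.5. Each of these comparisons sets 1 MOLM1 library against MUTZ3 and has no replicate check.

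In the 4xPLASS control, 18 sites at the loci were called in both libraries, with 6 at ADGRG1, 5 at CD34, 2 each at ITGA6, ITGA4 and ANGPT1, 1 at CD44 and none at PROM1, TEK and CXCR4. All 18 overlapped a CTBP2 peak of unmodified cells, against 88.2% of the 5700 sites in all, and 14 overlapped an EVI1 peak (77.8%), against 74.9%. No list of the retroviral 4xPLDLS counterpart was analysed here, so the control stands alone.

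Short motifs were counted on both strands within 100 bases of each summit. GATAAG was found at 7 of 65 CTBP2 sites (10.8%), against 5.09% of all CTBP2 sites, and at 9 of 67 EVI1 sites (13.4%), against 5.37%. GATGAG was found at 6 CTBP2 sites (9.23% against 11.6%) and 13 EVI1 sites (19.4% against 13.9%), and AAGATA at 2 (3.08% against 4.14%) and 3 (4.48% against 4.60%). GGAAGT, an ETS-type motif, was found at 25 CTBP2 sites (38.5% against 30.2%), TGTGGT, a RUNX-type motif, at 11 (16.9% against 18.6%), and TGACTCA, an AP-1-type motif, at 0 (5.09% of all). At EVI1 sites these were found at 19 (28.4% against 26.0%), 8 (11.9% against 18.5%) and 1 (1.49% against 4.73%). These matches describe letters in the windows and not bound factors. The median GC content was 53.7%, against 57.2% over all CTBP2 sites.

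Other genes of the same adhesion and niche system were counted in windows of the same design, from a list of 42 genes of which 41 were analysed. The 12 integrin genes, partners or relatives of ITGA4 and ITGA6, held 110 CTBP2 sites, of which 46 (41.8%) were in neither dox library. Over all CTBP2 sites this share was 41.0%. ITGAL, the alpha chain of LFA-1, held the most (16), and ITGB2, its beta chain, the highest ranked (594 of 37227). Of 12 ligand and matrix genes, 9 had a CTBP2 site, against 85.9% of all genes, with 28 sites in all and 15 (53.6%) in neither dox library. CXCL12 and VCAM1, the ligands of CXCR4 and ITGA4, had none, MADCAM1 had the most (7) and SPP1 the highest ranked (1653). Of 17 other progenitor and endothelial surface genes, 16 had a site, with 107 sites and 30 (28.0%) in neither dox library, led by ENG with 16 and CD164 with the highest rank (778). Over the 3 groups, 37.1% of 245 CTBP2 sites and 5.34% of 262 EVI1 sites were in neither dox library, against 41.0% and 9.01% of all sites.

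Ranked by strength, the genes kept different places in the lists. The percentile of the strongest peak (0 for the top of a list, 100 for no peak) had a median over the 13 lists of 0.905 for CD34, 1.85 for ADGRG1, 2.88 for ITGA4, 5.26 for ITGA6, 6.97 for ANGPT1, 9.44 for PROM1, 20.3 for CD44, 23.3 for CXCR4 and 100 for TEK. The ranges overlapped between neighbours, as at CD34, which ran from 0.339 to 41.0, the highest being 4xPLASS replicate 1. The ADGRG1 window varied least, from 0.838 to 5.67. In every list but CTBP2 untreated replicate 1 and unmodified EVI1, its strongest peak was nearest to the start site of DRC7. These percentiles therefore describe windows and cannot be assigned to 1 gene where a window covers others. Measured by the Euclidean distance between these 13 percentiles, the gene most like CD34 was TTC34 (5.92), ADGRG1 was nearest to SUSD1 and PTBP3 (4.08 for both), ITGA6 to ATP8B3 (6.47), ITGA4 to NTN1 (9.98) and ANGPT1 to HACE1 (13.3). PROM1, CXCR4, CD44 and TEK had no gene closer than 24.8, the distance of CD44 to LIPA.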

How the data were processed

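ChIP-seq peak lists of 13 libraries were used. The authors aligned reads to hg19 and called peaks per library against an input with MACS2 defaults (Bowtie 1.1.1 and MACS2 2.1.2 per the submitters' processing notes). The deposited lists give a fold enrichment (a ratio over local background), −log10 p and q at the summit, and a display score, which was not used. They hold no read counts. Windows were gene bodies of GENCODE 44 on GRCh37 with 50 kb on either side. Peaks overlapped when they shared 1 bp. Sites were merged intervals called in both untreated libraries. Counts were compared by exact two-sided permutation tests over libraries, and shares carry 95% Wilson intervals for counting error. Site matching was tested on simulated data. The rule named, per gene, the strongest site, promoter sites, the strongest lost site and the strongest peak of each list, of which most are given only as percentiles and some sites by range or count. Genes, lists and alternatives were chosen with earlier results of these data known. Analyses used Python 3.11.15, pandas 2.3.3, scipy 1.17.1 and pysam 0.24.0, and bedtools 2.31.1 was used to check overlaps.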

Additional observations from a re-analysis of the deposited data

How the results depend on the processing

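Across the alternatives tried, 57 values of the main results stayed within the spread or kept their direction, 16 moved and 5 reversed, and of the other values 75 held, 1 moved and 7 reversed. The CTBP2 log2 change at the 9 loci turned to 0.22 with lists cut to equal length and to 0.17 as a share of the list, and ran from -1.19 to -1.04 when 1 library was left out. The EVI1 change turned to 0.011 at a −log10 q of at least 5, 0.038 at equal length and 0.058 as a share, and ran from -0.27 to -0.13 without 1 library. As shares of the list, CTBP2 changes turned to 0.59 at ITGA6, 0.38 at ITGA4, 0.24 at ADGRG1, 1.00 at ANGPT1, 0.051 at CXCR4 and 0.27 at CD44, and the ANGPT1 count change ran from -0.85 to 0.74 without 1 library. The share of CTBP2 sites kept moved from 52.3% to 81.5% at equal length and 30.4% for sites called in either untreated library, and ran from 34.0% to 56.9% without 1 library. The share of EVI1 sites kept moved from 82.8% to 89.5% at a −log10 q of at least 5, 76.2% with summits within 200 bp, 85.8% at equal length and 57.1% for sites of either library, and ran from 62.4% to 83.6%. The share of unmodified EVI1 peaks with CTBP2 moved to 68.6% with CTBP2 sites of the untreated inducible model. The 18 4xPLASS sites became 8 with 10 kb on either side and 9 at a fold enrichment of at least 5. Leaving out an untreated library also changes what is counted. The kept share is then taken over all peaks of the other list (114 or 103 for CTBP2) and not over the 65 sites called in both. Those kept shares are therefore not like for like with the main ones. Other causes of the shifts were not tested, and no read depth was known.

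With the replicate number as a block, the log2 changes were -1.12 ± 0.10 for CTBP2 and -0.20 ± 0.17 for EVI1. The kept shares, here of all peaks of each untreated list, were 38.6% and 64.5%. The deviations of same-numbered libraries had correlations of 0.18 (CTBP2) and -0.22 (EVI1) over 20163 gene windows. With 2 pairs, and no label tying the numbers to a batch, this does not show whether the numbers pair the libraries. The crossed pairing for EVI1, chosen after seeing the data, gave -0.20 ± 0.02 and 68.0%.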
